A study of Homo sapiens with 9 samples.

Results

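The 41 genes described here encode the proteins of homologous recombination and of the Fanconi anaemia pathway. They were listed by symbol, and all 41 of them were found by their Ensembl identifiers among the 60675 genes of the count files. Their transcripts were measured by paired-end RNA-seq in LNCaP:C4-2 cells, a castrate-resistant prostate cancer line derived from LNCaP, after shRNA-mediated depletion of METTL3, the catalytic subunit of the complex that writes N6-methyladenosine on mRNA. The 9 libraries comprised 3 with a scrambled, non-gene targeting hairpin (shScramble), 3 with shMETTL3 guide 2 and 3 labelled shMETTL3 guide 1. The study's methods state that 2 METTL3 hairpins were tried and the one giving the best depletion was taken forward. By its target site, that hairpin is guide 2. Cells of every group, the shScramble controls included, had been transduced with a tetracycline-inducible lentiviral pLKO construct, selected with puromycin and given 1 µg/ml doxycycline for 6 days in phenol red-free medium with charcoal-stripped serum, and the sample names call all 9 libraries vehicle. Each hairpin was carried by its own transduced and selected cells, which the study's methods call stable clones, so the hairpin and the cells that carried it cannot be told apart. No source used here says whether the 3 libraries of a group came from separate cultures, so the p-values measure the spread between these libraries, which may be technical.

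Homologous recombination repairs a broken chromosome by copying the intact sister. The break ends are cut back by MRE11-RAD50-NBN with RBBP8 (CtIP), the kinases ATM and ATR signal the damage to CHEK2 and CHEK1, and BRCA1-BARD1, PALB2 and BRCA2 prepare the single strand, which the XRCC2 and XRCC3 complexes and RAD54 proteins help to invade the sister. The joined molecules are then taken apart by BLM-TOP3A-RMI1-RMI2 or cut by nucleases. At a crosslink between DNA strands, the Fanconi anaemia core complex and UBE2T attach ubiquitin to FANCD2 and FANCI, which opens the way to nucleases and to recombination. Many genes of both pathways are known to be transcribed mainly in late G1 and S phase, and in prostate cancer BRCA2, ATM and PALB2 are known as genes whose loss can sensitise tumours to PARP inhibitors.

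The sequences below show what was aimed at METTL3 and which of the 41 genes carried a short motif bound by E2F, the factor family of S phase transcription, beside the start site. The hairpin target sites on METTL3 mRNA, the first in exon 5 and the second across the junction of exons 4 and 5 by the labels, were:
guide 1: CGTCAGTATCTTGGGCAAGTT
guide 2: GCTGCACTTCAGACGAATTAT
Of the 41 genes, 37 had an entry in a RefSeq promoter set (GRCh38.p14, 250 bases before to 50 after each start site), with 50 promoters between them. NBN, RAD54B, RMI2 and FANCI had no entry. Both strands were searched for the E2F letters TTTCGCGC, TTTGGCGC, TTTCCCGC and TTTGCCGC, of which the last 2 were added after the data had been seen. The first was found in 1 of the 50 promoters, a promoter of FANCC (2.0%, against 0.515% of all 35116 promoters in the set), and the second in 0 (against 0.652%). Any of the 4 occurred in 5 of the 50 promoters (10.0%, against 3.31%), and those of FANCD2, XRCC2, RMI1 and FANCA held only the added letters. RMI1 and FANCC each had a further promoter in the set, which held none of the 4. The 5 promoters are printed in the direction of the gene, with matches on either strand to these letters, and to the 4 other motifs given after the sequences, in capitals:
FANCD2 (chr3:10026187-10026486, plus strand): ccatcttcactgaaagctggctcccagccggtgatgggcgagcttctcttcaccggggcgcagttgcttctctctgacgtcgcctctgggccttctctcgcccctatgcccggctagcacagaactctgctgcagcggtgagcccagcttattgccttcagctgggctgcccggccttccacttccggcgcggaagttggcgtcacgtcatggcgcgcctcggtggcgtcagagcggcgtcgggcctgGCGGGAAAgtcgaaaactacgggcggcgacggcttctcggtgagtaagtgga
XRCC2 (chr7:152676092-152676391, minus strand): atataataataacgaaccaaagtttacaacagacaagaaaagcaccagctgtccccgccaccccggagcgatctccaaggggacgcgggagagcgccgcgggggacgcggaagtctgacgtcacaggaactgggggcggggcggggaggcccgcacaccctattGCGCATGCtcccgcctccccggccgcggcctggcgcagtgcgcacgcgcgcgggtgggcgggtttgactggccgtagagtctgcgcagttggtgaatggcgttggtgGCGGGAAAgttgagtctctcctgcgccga
RMI1 (chr9:83980555-83980854, plus strand): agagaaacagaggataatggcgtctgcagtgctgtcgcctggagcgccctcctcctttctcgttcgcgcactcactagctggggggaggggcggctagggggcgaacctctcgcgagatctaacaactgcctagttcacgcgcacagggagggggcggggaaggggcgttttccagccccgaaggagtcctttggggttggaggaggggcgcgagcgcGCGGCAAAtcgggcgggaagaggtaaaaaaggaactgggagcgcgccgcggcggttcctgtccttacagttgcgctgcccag
FANCC (chr9:95317660-95317959, minus strand): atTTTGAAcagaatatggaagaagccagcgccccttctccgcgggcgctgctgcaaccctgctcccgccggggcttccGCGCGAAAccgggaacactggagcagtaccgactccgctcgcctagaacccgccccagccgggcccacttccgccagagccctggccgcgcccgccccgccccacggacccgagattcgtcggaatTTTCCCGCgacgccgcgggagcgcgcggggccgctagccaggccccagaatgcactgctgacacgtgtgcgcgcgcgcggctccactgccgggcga
FANCA (chr16:89816598-89816897, minus strand): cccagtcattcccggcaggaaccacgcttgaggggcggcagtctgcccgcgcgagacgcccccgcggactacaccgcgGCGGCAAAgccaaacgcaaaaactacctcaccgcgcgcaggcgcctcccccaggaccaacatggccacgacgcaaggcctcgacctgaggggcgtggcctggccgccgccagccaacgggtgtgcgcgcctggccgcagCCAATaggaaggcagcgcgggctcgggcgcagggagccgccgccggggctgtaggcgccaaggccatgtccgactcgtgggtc
Counting the start site as 0 and giving the leftmost base as printed, the E2F letters began at -2 in FANCD2, 21 in XRCC2, -32 in RMI1, -172 and -46 in FANCC, and -172 in FANCA. The CCAAT box of the factor NF-Y was found in 21 of the 50 promoters (42%, against 34.6% of all promoters), and the NRF1 core GCATGCGC in 3 (6.0%, against 3.05%). The letters of the cell cycle homology region, which marks genes of G2 and mitosis, were found as TTTGAA in 4 promoters (8.0%, against 15.2%) and as TTTAAA in 4 (8.0%, against 12.2%). TTTAAA reads the same on both strands, and promoters of one gene overlap in several cases, so these counts are of promoters and not of independent sequences. A match is a description of letters, not of a bound site, and a window without one says nothing about the factor.

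METTL3 itself (chr14:21498133-21511375) was read by 922, 1010 and 753 raw counts in the shScramble libraries, 382, 415 and 349 with guide 2, and 837, 837 and 886 in the libraries labelled guide 1. With guide 2 it fell by 0.95 on the log2 scale (SE 0.0687, quasi-likelihood test of edgeR, adjusted by Benjamini-Hochberg over the 19278 tested genes, hereafter edgeR adjusted p, 2.97e-12). In the libraries labelled guide 1 the difference was -0.08 (SE 0.0633, edgeR adjusted p 0.251) and the values overlapped those of shScramble, so METTL3 mRNA did not bear out that label and every direction given for guide 1 belongs to the libraries so labelled. Total counts ran from 21899501 to 30897639 per library, and 28459 to 29586 genes had a count in the shScramble libraries, 24884 to 26505 with guide 2 and 29193 to 29628 with guide 1. Mitochondrial genes took 5.96% to 6.34% of the counts in shScramble, 3.78% to 4.92% with guide 2 and 5.08% to 5.30% with guide 1, without overlap, and the part of this share in the results was not tested. The 12 luminal prostate markers were all detected, with summed levels of 2807 to 2839 CPM in shScramble, 3234 to 3375 CPM with guide 2 and 1461 to 1502 CPM with guide 1. Of 11 markers of blood, endothelial, stromal and basal cells, 7 to 8 per group were at or under a floor of 3 counts, PTPRC, CD3E, PECAM1, KRT5 and TP63 among them. The stromal collagen gene COL1A1 differed by -0.30 on the log2 scale with guide 2 and by -1.04 with guide 1, and the sum of all 11 was 43.7 to 48.2 CPM in shScramble, 36.3 to 40.3 with guide 2 and 21.5 to 27.5 with guide 1. Levels are given as CPM, the counts of a gene per 1e6 counts of its library after scaling by trimmed means. A gene was called raised or lowered if its adjusted p was under 0.05 and it changed 1.5-fold or more, which is 0.58 on the log2 scale.

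The recombination and Fanconi genes were mostly higher in both shMETTL3 groups than in shScramble, with 32 of 41 log2 fold changes above 0 with guide 2 and 35 of 41 with guide 1. The share of all tested genes above 0 was not counted, and their median log2 fold change was below 0 in both contrasts. With guide 2, 14 of the 41 genes were raised (34.1%, against 8.85% of all tested genes), 2 were lowered (4.88%, against 20.4%) and 25 were not called, with a median log2 fold change of 0.38 beside -0.04 for all tested genes. With guide 1, 26 were raised (63.4%, against 21.2%), 2 were lowered (4.88%, against 16.5%) and 13 were not called, and the median was 0.90 beside -0.02. By adjusted p alone, without the fold limit, 29 rose and 6 fell with guide 2 (background 30% and 31.7%), and 31 rose and 4 fell with guide 1 (35.4% and 33%). Both contrasts use the same 3 shScramble libraries and are therefore not independent of each other. The 41 genes were chosen with earlier results of these data known, so their shares beside the background are not free of that choice. All 41 genes passed the filter on low counts, so no member was left out of these counts. When library totals alone set the scale, without trimmed means, 10 members rose and 2 fell with guide 2, while over all genes 1012 were raised and 4865 lowered in place of 1706 and 3939, and the median of all genes moved to -0.19.

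**Figure D1:**
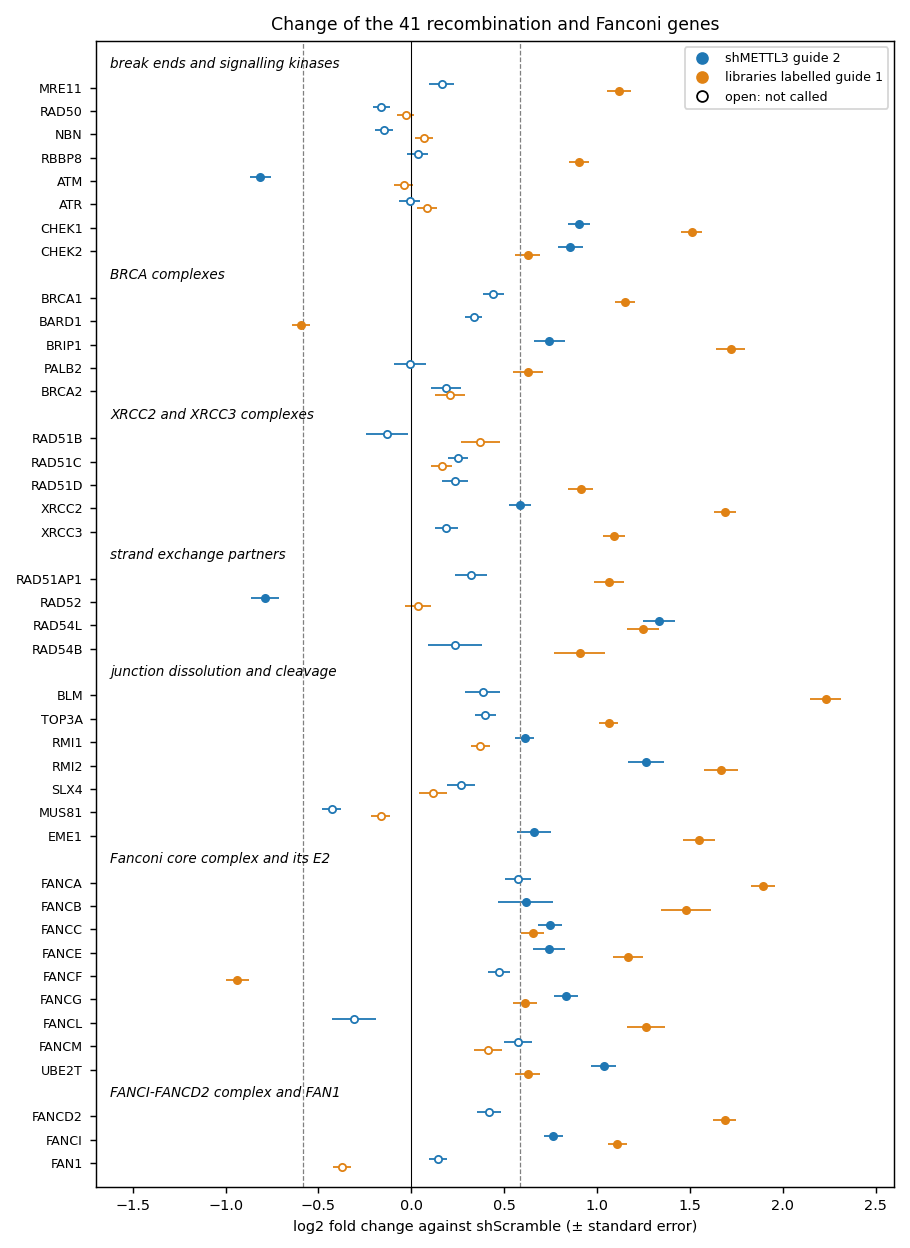
Log2 fold change against shScramble (horizontal axis, ± standard error, 3 libraries a group) of each of the 41 genes, grouped by role, for guide 2 (blue) and the libraries labelled guide 1 (orange). Filled points were called and dashed lines mark the 1.5-fold limit. Orange points reach 2.23 (BLM), and the called falls are ATM and RAD52 in blue and BARD1 and FANCF in orange.

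By library, the median over the 41 genes of the log2 ratio to the shScramble mean was 0.04, -0.06 and 0.03 in shScramble replicates 1 to 3, 0.38, 0.42 and 0.29 with guide 2, and 0.91, 0.78 and 0.85 with guide 1. The second shScramble library was the low one of its group, with 8 of 41 genes above the group's mean, where the others had 27 and 26. Genes above that mean numbered 31 to 35 in the guide 2 libraries and 34 to 36 with guide 1. No such count was made over all tested genes. The median level of the 41 genes was 27.1 CPM in shScramble, 35.7 with guide 2 and 45.7 with guide 1, and the median coefficient of variation between the libraries of a group was 6.34%, 3.90% and 4.20%. FANCB was the least read in shScramble at 3.85 CPM and BARD1 the most at 115 CPM. Per kilobase of exon, which allows genes to be compared, UBE2T was highest in shScramble at 27.6 CPM, ahead of BARD1 at 19.0 and MUS81 at 15.8, and RAD54B was lowest at 0.976, next to FANCB at 1.20 and BRIP1 at 1.23.

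Among the 41 genes, 13 were raised in both contrasts, 13 were called raised with guide 1 and not with guide 2, and 1, RMI1, was called raised with guide 2 and not with guide 1. ATM and RAD52 were called lowered with guide 2, BARD1 and FANCF with guide 1, 10 genes were called in neither contrast, and none was called in opposite directions. How many of all tested genes fall in each of these joint classes was not counted, and both contrasts share the shScramble libraries. Compared directly, guide 2 libraries were lower than guide 1 libraries for 20 members (48.8%, against 28.2% of all tested genes), higher for 2 (4.88%, against 19.1%) and not called for 19. By adjusted p alone, 27 were lower and 7 higher (background 39.9% and 34.7%). The direct contrast compares the guide libraries alone, while the shScramble libraries share in its filter, scaling and estimate of spread.

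Genes of the break ends and of damage signalling split by gene and by guide. With guide 2, 2 of the 8 were raised and 1 was lowered, and with guide 1, 4 were raised and none was lowered. ATM (chr11:108222484-108369102), the apical kinase of the double-strand break response, was read at 84.5, 87.6 and 89.2 CPM in shScramble, 50.5, 52.4 and 45.8 CPM with guide 2 and 82.0, 90.6 and 81.2 CPM with guide 1. The guide 2 libraries lay below all others and the remaining groups overlapped. ATM fell by 0.81 on the log2 scale with guide 2 (SE 0.0559, edgeR adjusted p 9.93e-13), a 1.76-fold fall, against -0.04 with guide 1 (edgeR adjusted p 0.497), and the direct difference between the guides was -0.77 (SE 0.0559, edgeR adjusted p 6.81e-13). ATR (chr3:142449235-142578826), the kinase that answers single-stranded DNA, was close to level in every group, at 45.9, 51.7 and 50.4 CPM in shScramble, 49.1, 49.6 and 48.3 with guide 2 and 50.5, 55.4 and 50.9 with guide 1. Its log2 fold changes were -0.01 (SE 0.0573) and 0.08 (SE 0.0563), and 16.4% of its exon bases are shared with a pseudogene on the other strand.

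The effector kinases below ATM and ATR rose in both contrasts. CHEK1 (chr11:125625136-125676255), the kinase that ATR activates, was at 27.9, 25.2 and 28.2 CPM in shScramble, 50.4, 51.9 and 49.3 CPM with guide 2 and 79.9, 74.9 and 76.1 CPM with guide 1. The groups did not overlap and stood in that order. Its log2 fold change was 0.90 with guide 2 (SE 0.0581, edgeR adjusted p 2.6e-13) and 1.51 with guide 1 (SE 0.0564, edgeR adjusted p 4.52e-19). CHEK2 (chr22:28687743-28742422), the kinase that ATM activates, was at 17.8, 17.1 and 17.1 CPM in shScramble, 30.5, 31.3 and 32.2 with guide 2 and 27.8, 25.8 and 26.7 with guide 1, so that the guide 2 libraries were the highest. Its log2 fold changes were 0.85 (SE 0.0675, edgeR adjusted p 1.66e-11) and 0.63 (SE 0.0672, edgeR adjusted p 3.28e-09). MRE11, the nuclease of the complex that holds the break ends, and RBBP8, which starts their resection, rose with guide 1 (log2 fold changes 1.12 and 0.90) and were at 0.16 and 0.03 with guide 2, uncalled. RAD50 and NBN, the other members of the MRE11 complex, were not called in any contrast, with log2 fold changes between -0.16 and 0.07 against shScramble.

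BRCA1 and its direct partner BARD1 went separate ways with guide 1. Of the 5 genes of the BRCA complexes, 1 was raised with guide 2, and 3 were raised and 1 lowered with guide 1. BRCA1 (chr17:43044295-43170245), the ubiquitin ligase that promotes resection, was at 47.1, 40.2 and 45.7 CPM in shScramble, 57.8, 62.5 and 60.2 CPM with guide 2 and 96.8, 101 and 97.7 CPM with guide 1. All 3 groups stood apart. Its log2 fold change with guide 1 was 1.15 (SE 0.0553, edgeR adjusted p 1.31e-16), and with guide 2 it was 0.44 (SE 0.0570, edgeR adjusted p 1.71e-07), under the fold limit. BARD1 (chr2:214725646-214809711), which forms a heterodimer with BRCA1, was at 116, 113 and 116 CPM in shScramble, 139.6, 156 and 141 CPM with guide 2 and 75.3, 76.8 and 76.9 CPM with guide 1. It was thus highest with guide 2 and lowest with guide 1, without overlap. BARD1 fell by 0.59 on the log2 scale with guide 1 (SE 0.0480, edgeR adjusted p 1.05e-11), close to the fold limit, had a log2 fold change of 0.34 with guide 2 (uncalled), and was 0.93 higher on the log2 scale with guide 2 than with guide 1 (SE 0.0480, edgeR adjusted p 3.68e-16). Without guide 1 replicate 1 the fall with guide 1 was -0.58 and was no longer called.

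BRIP1 (chr17:61681266-61863521), a helicase that binds BRCA1 and is also a Fanconi protein, was at 10.6, 9.11 and 9.64 CPM in shScramble, 16.4, 17.0 and 15.8 CPM with guide 2 and 32.1, 31.7 and 32.9 CPM with guide 1. No groups overlapped. Its log2 fold change was 0.74 with guide 2 (SE 0.0830, edgeR adjusted p 1.28e-08) and 1.72 with guide 1 (SE 0.0770, edgeR adjusted p 2.65e-17). PALB2 (chr16:23603160-23641310), the bridge between BRCA1 and BRCA2, was at 14.4, 12.6 and 13.7 CPM in shScramble, 12.9, 14.0 and 13.6 with guide 2 and 20.2, 22.3 and 20.2 with guide 1. The first pair of groups overlapped and the guide 1 libraries lay above both, with a log2 fold change of 0.63 (SE 0.0805, edgeR adjusted p 9.05e-08) that lost its call without shScramble replicate 2 or guide 1 replicate 2, the lowest value being 0.57. BRCA2 (chr13:32315474-32400266), which acts on the resected single strand, was at 57.6, 48.3 and 57.8 CPM in shScramble, 62.2, 67.8 and 55.8 with guide 2 and 58.9, 68.4 and 61.7 with guide 1. Its log2 fold changes of 0.19 (SE 0.0809, edgeR adjusted p 0.0561) and 0.21 (SE 0.0799, edgeR adjusted p 0.0292) were not called, and guide 2 overlapped both other groups.

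**Figure D2:**
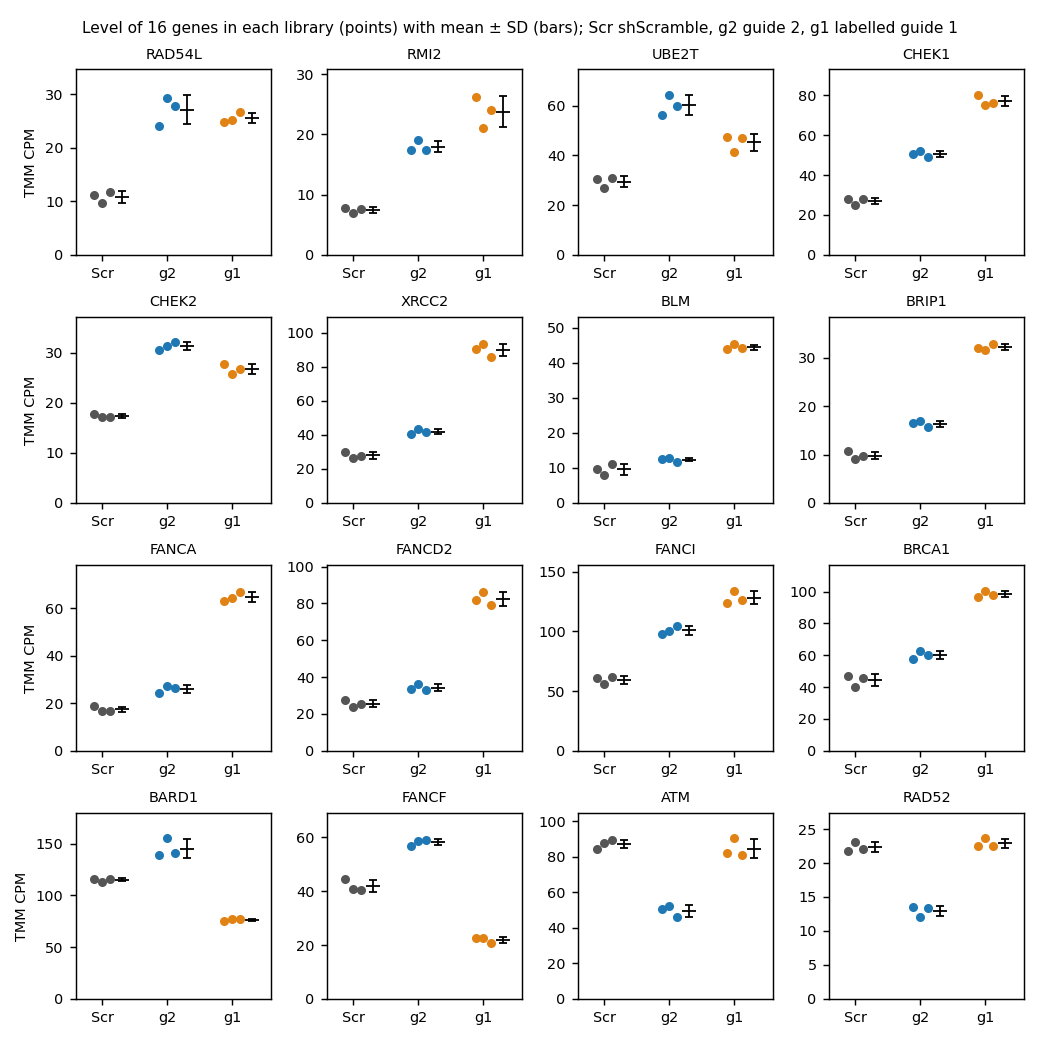
Level of 16 of the 41 genes in every library, in CPM scaled by trimmed means (vertical axis, from 0), with 1 point per library and the mean ± SD of 3 libraries beside them. ATM and RAD52 are low in the guide 2 libraries, BARD1 and FANCF are low in the libraries labelled guide 1, and BLM is near shScramble with guide 2 and above 43 CPM with guide 1.

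Of the 5 genes of the XRCC2 and XRCC3 complexes, which assist strand invasion, 1 was raised with guide 2, 3 were raised with guide 1 and none was lowered. XRCC2 (chr7:152644779-152676165) was at 29.9, 26.3 and 27.3 CPM in shScramble, 40.2, 43.4 and 41.7 CPM with guide 2 and 90.3, 93.2 and 85.7 CPM with guide 1. The groups were separate, and the guide 1 libraries were far above the rest. The log2 fold change was 1.69 with guide 1 (SE 0.0576, edgeR adjusted p 5.96e-20) and 0.59 with guide 2 (SE 0.0605, edgeR adjusted p 3.04e-09), which lay on the fold limit and lost its call in 7 of 18 other settings. RAD51D, which binds XRCC2, and XRCC3 rose with guide 1 (log2 fold changes 0.91 and 1.09) and were uncalled with guide 2 (0.23 and 0.19). XRCC3 shares 76.7% of its exon bases with KLC1 on the opposite strand, and reads of the pair cannot be told apart without strand. RAD51B and RAD51C were called in no contrast, with log2 fold changes of -0.13 and 0.25 with guide 2 and 0.37 and 0.16 with guide 1.

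The 4 genes that assist strand exchange included the largest rise with guide 2 and a fall. RAD54L (chr1:46247688-46278473), the motor protein that drives strand invasion, was at 11.1, 9.58 and 11.7 CPM in shScramble, 24.0, 29.3 and 27.8 CPM with guide 2 and 24.8, 25.2 and 26.6 CPM with guide 1. Both guide groups lay above shScramble and overlapped each other. The log2 fold changes were 1.33 (SE 0.0869, edgeR adjusted p 3.37e-13) and 1.25 (SE 0.0859, edgeR adjusted p 3.52e-13), with a direct difference of 0.08 (SE 0.0791, edgeR adjusted p 0.339). RAD54L shares 25.1% of its exon bases with LRRC41 on the opposite strand. RAD52 (chr12:912077-990053), which anneals complementary single strands, was at 21.8, 23.1 and 22 CPM in shScramble, 13.5, 12.1 and 13.3 CPM with guide 2 and 22.5, 23.7 and 22.4 CPM with guide 1, so the guide 2 libraries stood alone at the low end. RAD52 fell by 0.79 on the log2 scale with guide 2 (SE 0.0771, edgeR adjusted p 1.09e-09) and differed by 0.03 with guide 1 (edgeR adjusted p 0.683), and the direct difference was -0.82 (SE 0.0768, edgeR adjusted p 1.53e-10). RAD51AP1, which stimulates the forming of joint molecules, and RAD54B, a relative of RAD54L, rose with guide 1 (log2 fold changes 1.06 and 0.91) and were uncalled with guide 2 (0.32 and 0.23). RAD54B shares 55.1% of its exon bases with FSBP on the same strand and was read at 5.62 CPM in shScramble.

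Of the 7 genes that dissolve or cut joint molecules, 3 were raised with guide 2, 4 with guide 1 and none was lowered. BLM (chr15:90717327-90816165), the helicase mutated in Bloom syndrome, had the largest rise of the 41 genes with guide 1. It was at 9.74, 7.91 and 11 CPM in shScramble, 12.4, 12.8 and 11.7 CPM with guide 2 and 43.9, 45.2 and 44.1 CPM with guide 1, and the guide 1 values were far above both other groups. The log2 fold change was 2.23 with guide 1 (SE 0.0843, edgeR adjusted p 5.98e-19), a 4.69-fold rise, and 0.38 with guide 2 (SE 0.0962, edgeR adjusted p 0.00116), under the fold limit. RMI2 (chr16:11249619-11351762), a small scaffold subunit of the BLM complex, was at 7.86, 6.97 and 7.67 CPM in shScramble, 17.5, 19.1 and 17.4 CPM with guide 2 and 26.3, 21.1 and 24.0 CPM with guide 1, with no overlap. Its log2 fold changes were 1.26 (SE 0.0963, edgeR adjusted p 8.2e-12) and 1.67 (SE 0.0924, edgeR adjusted p 2.98e-15). TOP3A, the topoisomerase of the complex, rose with guide 1 (log2 fold change 1.06) and was at 0.40 with guide 2. RMI1, which has a promoter printed above and another without E2F letters, rose with guide 2 (0.61) and was at 0.37 with guide 1. The call of RMI1 was lost under library size alone (0.46), at a minimum mean of 1 CPM (0.56) and against the fold limit itself. EME1, the partner of the nuclease MUS81, rose in both contrasts (log2 fold changes 0.66 and 1.55), whereas MUS81 was uncalled at -0.43 and -0.16. With guide 2 the call of EME1 was lost under library size alone (0.51) and against the fold limit itself. SLX4, the nuclease scaffold, was uncalled at 0.27 and 0.12. EME1 and MUS81 share 16.4% and 14.1% of their exon bases with neighbours on the opposite strand.

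The Fanconi core complex and its ubiquitin-conjugating enzyme UBE2T held the largest share of raised genes with guide 2 of the 7 roles, 5 of 9, and with guide 1 it held 7 raised and 1 lowered. UBE2T (chr1:202331657-202341980) was at 30.6, 26.8 and 30.9 CPM in shScramble, 56.3, 64.4 and 59.8 CPM with guide 2 and 47.6, 41.4 and 46.9 CPM with guide 1. Guide 2 was the highest group and there was no overlap. The log2 fold change was 1.03 with guide 2 (SE 0.0677, edgeR adjusted p 5e-13) and 0.63 with guide 1 (SE 0.0679, edgeR adjusted p 4.94e-09), and the latter lost its call without shScramble replicate 2, at 0.55. FANCA (chr16:89737549-89816657), the core subunit most often mutated in Fanconi anaemia, was at 18.7, 16.7 and 16.8 CPM in shScramble, 24.3, 27.3 and 26.2 CPM with guide 2 and 63.0, 64.3 and 66.9 CPM with guide 1, without overlap. Its log2 fold change was 1.89 with guide 1 (SE 0.0642, edgeR adjusted p 5.32e-20) and 0.57 with guide 2 (SE 0.0691, edgeR adjusted p 4.95e-08), just outside the fold limit. FANCA shares 23.6% of its exon bases with ZNF276 on the opposite strand.

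FANCF (chr11:22622519-22626787), an adaptor within the core complex, moved against most of its partners with guide 1. It was at 44.5, 40.9 and 40.5 CPM in shScramble, 57.0, 58.6 and 59.2 CPM with guide 2 and 22.6, 22.6 and 20.6 CPM with guide 1, so that guide 2 was highest and guide 1 lowest with no overlap. FANCF fell by 0.94 on the log2 scale with guide 1 (SE 0.0614, edgeR adjusted p 1.23e-13), had a log2 fold change of 0.47 with guide 2 (uncalled), and differed by 1.41 between the guides (SE 0.0610, edgeR adjusted p 7.05e-18). FANCL, the ligase subunit that works with UBE2T, had a log2 fold change of -0.31 with guide 2 (uncalled) and rose with guide 1 (1.26), a direct difference of -1.57 (SE 0.109, edgeR adjusted p 2.36e-13). FANCL shares 19.7% of its exon bases, mainly with VRK2 on the opposite strand. The core subunits FANCB, FANCC, FANCE and FANCG rose in both contrasts, with log2 fold changes of 0.62, 0.75, 0.74 and 0.83 with guide 2 and 1.48, 0.65, 1.17 and 0.61 with guide 1. FANCM, the DNA translocase that anchors the core complex, was uncalled at 0.57 and 0.41. FANCB, read at 3.85 CPM in shScramble, lost its call with guide 2 in 5 of 18 other settings. FANCG lost its call with guide 1 in 4 of them, 3 with 1 library left out and 1 when tested against the fold limit itself, where the calls of FANCB and FANCE with guide 2 and of FANCC with guide 1 were lost too.

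The substrates of the core complex rose together with guide 1, and FANCI also with guide 2. FANCD2 (chr3:10026414-10101930) was at 27.6, 24.0 and 25.2 CPM in shScramble, 33.3, 36.3 and 33.0 CPM with guide 2 and 81.7, 86.4 and 79.2 CPM with guide 1. The groups stood apart, with guide 2 closer to shScramble than to guide 1. Its log2 fold change was 1.69 with guide 1 (SE 0.0606, edgeR adjusted p 1.87e-19) and 0.42 with guide 2 (SE 0.0644, edgeR adjusted p 2.81e-06), under the fold limit. FANCI (chr15:89243949-89317261), the paired substrate, was at 60.7, 55.6 and 62.0 CPM in shScramble, 97.4, 100.4 and 105 CPM with guide 2 and 124, 134 and 126 CPM with guide 1, again without overlap. Its log2 fold changes were 0.76 (SE 0.0517, edgeR adjusted p 6.95e-13) and 1.11 (SE 0.0511, edgeR adjusted p 4.97e-17). FAN1, a nuclease that ubiquitinated FANCD2 recruits, was uncalled at 0.14 and -0.37, and shares 24.3% of its exon bases with MTMR10 on the opposite strand. Of the 5 genes with a promoter printed above, FANCD2, XRCC2 and FANCA had log2 fold changes of 1.69 to 1.89 with guide 1, FANCC had 0.65 and RMI1 had 0.37. With guide 2 the log2 fold changes were 0.42 for FANCD2, 0.59 for XRCC2, 0.57 for FANCA, 0.75 for FANCC and 0.61 for RMI1, of which FANCD2 and FANCA were not called. BLM and BRIP1, the other members among the 5 largest rises with guide 1, held none of the 4 E2F octamers in their promoters. Of the 5 largest rises with guide 2, RAD54L, UBE2T, CHEK1 and CHEK2 held none either, and RMI2 had no promoter entry. Whether the letters go with a change was not tested.

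Partners that share a complex or act on one another can be compared within a library as a ratio of their counts per exon kilobase. The 10 pairs were chosen after the values had been seen, so the ratios are given as a description with no test. BRCA1 to BARD1 had a geometric mean ratio of 0.261 in shScramble, 0.281 with guide 2 and 0.876 with guide 1. The first pair of groups overlapped, and the guide 1 libraries stood apart. UBE2T to FANCL was 9.78 in shScramble, 24.7 with guide 2 and 6.23 with guide 1, and no guide group overlapped shScramble. BLM to TOP3A was 0.205, 0.202 and 0.459 in the same order, with overlap between shScramble and guide 2. RMI1 to RMI2 went from 4.26 to 2.71 and 1.74, and FANCD2 to FANCI from 0.399 to 0.314 with guide 2 and 0.597 with guide 1, each without overlap with shScramble. EME1 to MUS81 was 0.220, 0.465 and 0.719 in the 3 groups. For the kinases, CHEK2 to ATM was 1.07 in shScramble, 3.41 with guide 2 and 1.71 with guide 1, and CHEK1 to ATR was 1.05, 1.96 and 2.81. MRE11 to RAD50 was 0.401, 0.500 and 0.888, while NBN to RAD50 was 1.11, 1.12 and 1.18. The NBN to RAD50 values of guide 1 lay above those of shScramble without overlap, and those of guide 2 overlapped shScramble.

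**Figure D3:**
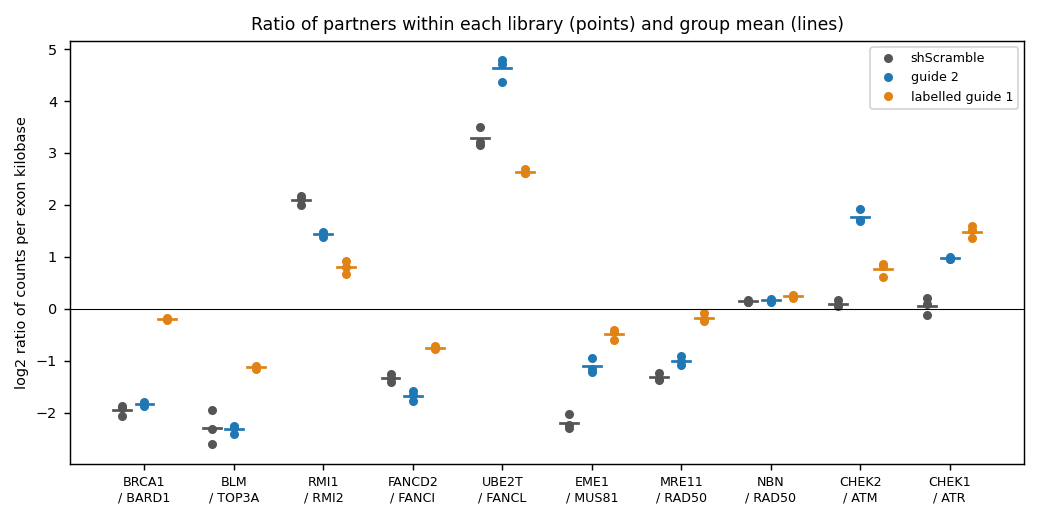
Log2 ratio of counts per exon kilobase (vertical axis) between partners in each library, with 1 point per library and a line at the group mean. BRCA1 to BARD1 lies near -1.94 in shScramble and -0.19 with guide 1, and NBN to RAD50 stays within 0.13 to 0.27 in all 9 libraries.

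Further genes of the same processes were counted in the same way, from lists of their own. Of 33 tested further recombination and crosslink repair genes, 5 were raised (15.2%) and 1 lowered (3.03%) with guide 2 (median log2 fold change 0.08). With guide 1, 10 were raised (30.3%) and 3 lowered (9.09%), with a median of 0.16. Over all tested genes 8.85% were raised and 20.4% lowered with guide 2, and 21.2% and 16.5% with guide 1. The largest rises were CENPX (0.95) and EXO1 (0.76) with guide 2 and EXO1 (2.72) and RFWD3 (1.28) with guide 1. EXO1 is a resection nuclease, RFWD3 a ubiquitin ligase of crosslink repair and CENPX a DNA-binding partner of FANCM. The called falls were POLN, a DNA polymerase, with guide 2 (-0.82), and with guide 1 CENPS, the partner of CENPX (-0.69), the core complex subunit FAAP20 (-0.64) and EME2 (-0.62). The CENPS values of guide 1 overlapped those of shScramble and its call was lost without guide 1 replicate 2 (-0.51), and that of EME2 without guide 1 replicate 1 (-0.55). Of 17 tested checkpoint and break-site ubiquitin genes, 2 were raised with guide 2 (11.8%), CLSPN (1.41) and H2AX (0.83). With guide 1, 6 were raised (35.3%), led by the phosphatase CDC25A (2.91) and CLSPN (2.34), the mediator of CHEK1 activation. None of the 17 was lowered with either guide. Of 7 tested genes of non-homologous end joining, the pathway that rejoins ends without a template, none was called with guide 2. With guide 1, 1 was raised (14.3%), PRKDC (0.98). These shares were not tested against those of the 41 genes.

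**Figure D4:**
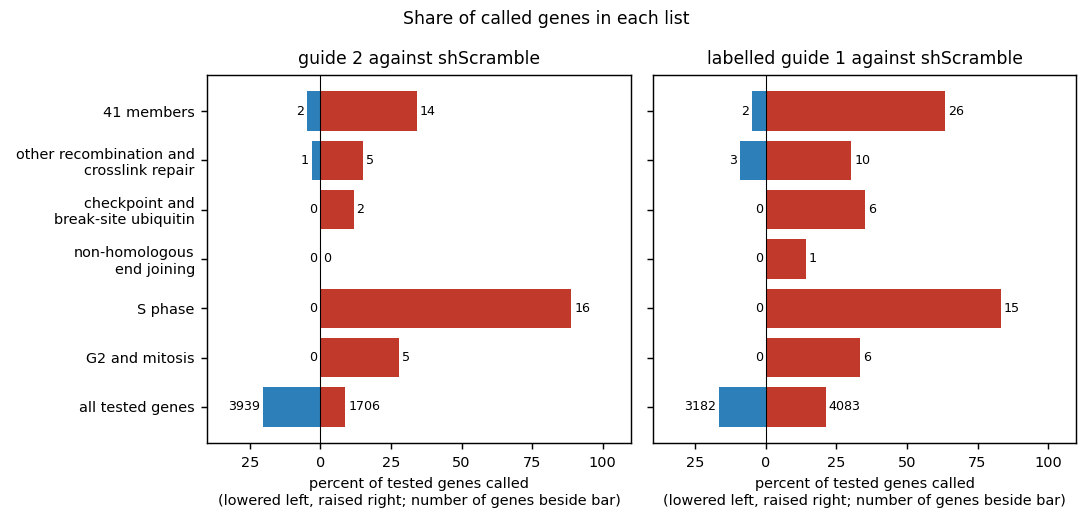
Share of tested genes called raised (to the right) and lowered (to the left), in percent, for the 41 members, 5 other lists and all 19278 tested genes, with the number of genes beside each bar. Among the members 34.1% rose with guide 2 and 63.4% with guide 1, and among the S phase genes 88.9% and 83.3%.

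Genes of the cell cycle moved beside the repair genes. Of 18 S phase genes, 16 were raised with guide 2 (88.9%, median log2 fold change 1.05) and 15 with guide 1 (83.3%, median 1.62), and none was lowered. Over all tested genes 8.85% were raised and 20.4% lowered with guide 2, and 21.2% and 16.5% with guide 1. The lists, like the 41 genes, were chosen with earlier results of these data known. The summed level of the 18 was 697 to 747 CPM in shScramble, 1570 to 1639 CPM with guide 2 and 2290 to 2346 CPM with guide 1. RRM2, a subunit of ribonucleotide reductase (1.65), and the helicase subunit MCM7 (1.49) rose most with guide 2, and DTL, a substrate receptor of a ubiquitin ligase (2.47), and MCM3 (2.26) with guide 1. Of 18 G2 and mitosis genes, 5 were raised with guide 2 (27.8%, median 0.31) and 6 with guide 1 (33.3%, median 0.38), and none was lowered. Their sum was 1434 to 1604, 1876 to 1959 and 2085 to 2159 CPM in the 3 groups. The mitotic kinase CDK1 (1.09) and the checkpoint protein BUB1B (0.91) led with guide 2, and the kinase AURKB (1.61) and cyclin CCNA2 (1.23) with guide 1. In bulk RNA, more cells in S phase and more RNA per cell cannot be told apart, and the part of the cell cycle genes in the changes of the 41 genes was not tested. Of the 12 luminal prostate markers, 3 were raised and 1 lowered with guide 2 and 6 were lowered with guide 1. HOXB13, a transcription factor, rose (0.78) and KLK3, which encodes PSA, fell (-0.82) with guide 2, and FOLH1, which encodes PSMA (-1.15), and STEAP1 (-1.01) fell most with guide 1. The part of these markers in the result was not tested either.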

How the data were processed

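Gene counts of 9 paired-end RNA-seq libraries (shScramble, shMETTL3 guide 2 and shMETTL3 guide 1, 3 each) were analysed. The authors deposited raw counts per Ensembl gene. Their processing notes name Trim Galore, cutadapt, FastQC, STAR, featureCounts and GRCh38, while the strand setting, the handling of reads that map to several places and the tool versions are not given in the sources used here, so reads of overlapping genes may be shared or lost. Of 60675 genes, 93.2% matched a symbol, and 9 of the 41 members share at least 10% of their exon bases with another gene. Library totals ran from 21899501 to 30897639 counts, and no pair of replicates agreed within sampling noise (chi-square per degree of freedom 3.71 to 9.84).

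Genes were filtered in edgeR 4.0.16 (minimum count 10, minimum total 15), which left 19278, scaled by trimmed means and fitted in one quasi-likelihood model over all 9 libraries. A call needed a Benjamini-Hochberg adjusted p under 0.05 and a 1.5-fold or larger change. The biological coefficient of variation was 0.0512. DESeq2 1.42.0, other scalings, filters and call rules, a replicate block and the omission of each library were tried as alternatives. The model was tested on simulated data before use. Counts per exon kilobase used the merged exon length given in the count files. Promoters came from RefSeq (GRCh38.p14).

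The members and lists were chosen with earlier results of these data known. Values in every library were given for up to 5 called members that rose most and up to 5 that fell most against shScramble for each guide, and for BRCA1, BRCA2, PALB2, ATM, ATR, CHEK1, CHEK2, FANCD2 and FANCI, and of the other lists the 2 largest called rises and falls. EME2 was named beyond that rule, after its value was seen. Some genes that the rule would name are not reported here. Replicate numbers did not pair the libraries: same-numbered libraries correlated in their deviations from the group means between -0.0981 and 0.0529.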

Additional observations from a re-analysis of the deposited data

Results flagged for a closer look

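For 22 of the 41 genes the change against shScramble differed between the guides, as shown by the direct comparison of the guide 2 and guide 1 libraries (quasi-likelihood test of edgeR, adjusted by Benjamini-Hochberg, at 1.5-fold or more). In this contrast, 4.88% of the 41 were called higher with guide 2 and 48.8% lower, beside 19.1% and 28.2% of all tested genes. Differences are log2 values of guide 2 minus guide 1. FANCF at 1.41 and BARD1 at 0.93 were higher with guide 2. The other 20 were lower with guide 2. They were widest for BLM at -1.85, FANCL at -1.57, FANCA at -1.32, FANCD2 at -1.27 and XRCC2 at -1.10. BRIP1 at -0.97, MRE11 at -0.96, XRCC3 at -0.90, EME1 at -0.89, RBBP8 at -0.87, FANCB at -0.86 and RAD52 at -0.82 came next. ATM was at -0.77, RAD51AP1 at -0.74, BRCA1 at -0.71, RAD51D at -0.68, RAD54B at -0.67, TOP3A at -0.66, PALB2 at -0.63 and CHEK1 at -0.61. ATM and RAD52 were lowered with guide 2 and near shScramble with guide 1, while the remaining 18 had the higher value against shScramble with guide 1. METTL3 was lower with guide 2 than with guide 1 by 0.86 on the log2 scale, and the summed S phase genes stood at 1570 to 1639 CPM with guide 2 and 2290 to 2346 CPM with guide 1. The part of either in these differences was not tested.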

How the results depend on the processing

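Counts of members called kept within 1.5 times of the reported ones under DESeq2, DESeq2 size factors, library size alone, either filter, the 6 compared libraries alone and, chosen after seeing the data, the members sharing under 10% of exon bases. With a replicate block the counts were 14 raised and 2 lowered with guide 2, 26 and 2 with guide 1, and 2 and 20 between the guides, and no call of a member changed with the pairing. With 1 library left out, guide 2 raised 12 to 16 and lowered 2, guide 1 raised 23 to 26 and lowered 1 to 2, and the direct contrast gave 2 higher and 18 to 21 lower. Guide 1 lowered 1 without guide 1 replicate 1, where BARD1 lost its call. Tested against the 1.5-fold limit itself (glmTreat), guide 2 raised 8 and guide 1 lowered 1, and 17 member calls were lost. These were XRCC2, RMI1, FANCB, EME1, FANCE and BRIP1 with guide 2, BARD1, FANCG, UBE2T, CHEK2, PALB2 and FANCC with guide 1, and CHEK1, PALB2, TOP3A, RAD54B and RAD51D between the guides. By adjusted p alone, guide 2 raised 29 and lowered 6, guide 1 lowered 4, and 7 members were higher with guide 2 than with guide 1. Uncalled values near 0 changed sign, and so did that of FAN1. With guide 2, RBBP8 became -0.116 under library size alone, -0.0139 at a minimum mean of 1 CPM, and -0.00175 to 0.0708 with 1 library left out. FAN1 was among the 29 raised by adjusted p alone with guide 2, and those libraries lay above shScramble without overlap. Under library size alone it became -0.00829, so its direction depended on the scaling. ATR became 0.000943 with DESeq2, 0.00102 with its size factors, 0.0124 without a filter, and -0.0566 to 0.0276 with 1 library left out. PALB2 became 0.00390, 0.00412 and 0.0155 under the first 3 of these and -0.0595 to 0.0458 with 1 library left out. Between the guides, RAD51C became -0.0489, RAD54L -0.0527 and FANCC -0.0455 under library size alone, and BRCA2 ran from -0.0871 to 0.0546 with 1 library left out. The cause was not tested. XRCC2 with guide 2 lost its call without shScramble replicate 2 or 3 or guide 2 replicate 2, under library size alone, at a minimum mean of 1 CPM and with the 6 compared libraries alone. Without guide 2 replicate 1 or 2, under library size alone and at a minimum mean of 1 CPM FANCB lost its call with guide 2, and without shScramble replicate 2 or 3 or guide 1 replicate 2 FANCG lost its call with guide 1. Between the guides, CHEK1 lost its call without guide 2 replicate 3 or guide 1 replicate 1, PALB2 without guide 1 replicate 2 and RAD54B without guide 2 replicate 3. Of 2091 alternative values of members, 2021 kept direction and side of the threshold, 41 lost a call, 8 gained one and 21 changed sign.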
